A study of Triticum aestivum with 12 samples.

Results

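The long covered loci of the wheat methylome are the stretches of nuclear DNA of 5000 bp or more over which the reads of methylated DNA ran on without a break, with a mean raw count below 40 per library. They were chosen by length and mean count alone, and 20965 of the 11509120 loci in the count table met the rule (0.182%). A further 729 nuclear loci were long enough but had a mean count of 40 or more and were left out. The length of a locus was set by the pooled reads of all 12 libraries, so a long locus is not a long stretch of coverage in any 1 library, and its length and total count are not findings.

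The plants were winter wheat, Triticum aestivum variety Mv Béres, grown in hydroponic solution under 16 h of light at 22 °C and 8 h of dark at 20 °C. In the BP and BC groups the light was blue (B), with 82.14% blue and 16.7% red, and in the WP and WC groups it was white (W), with 32.32% blue, 45.71% green and 20.71% red. All 4 groups received the same photon flux density of 250 µmol m-2 s-1. The BP and WP plants had 0.5 mM putrescine (PUT) in the solution for 7 days, against none in the BC and WC plants (C). Each group had 3 libraries from leaves of separate biological repetitions, 12 in all. Libraries are called by group and repetition, so BP3 is the third BP library. All plants were of 1 variety and the counts are from whole leaves, so a change in some cells and a smaller change in all cells cannot be told apart.

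In plant DNA, a methyl group on cytosine (5mC) is kept in the CG, CHG and CHH contexts by separate enzymes, and it is densest over transposable elements and other repeats, where it goes with silencing. Bread wheat is an allohexaploid with the A, B and D subgenomes, and most of each chromosome away from the ends is repeat-rich and poor in genes. In MeDIP-seq an antibody against 5mC pulls down methylated fragments, which are then sequenced, so a count rises with the methylation of a locus and also with its length, its copy number and its density of cytosines. The method does not resolve single cytosines or their context.

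Total counts ran from 15812048 to 21355140 per library, and the long loci held between 290711 and 528538 of them. Depth was split by light, with totals of 19641114 to 21355140 in B light libraries and 15812048 to 18824815 in W light libraries. Before any comparison, 3 libraries have to be set apart. WC1 had no read at 3659 long loci, more than any other library. BC2 and BP3 resembled each other more than their own groups over the long loci (Pearson r = 0.35 between them across the long loci, which share libraries, depth and reads with each other, on log2 CPM, counts scaled to the library total). Against WC2, WC3, WP1, WP2, WP3 and BP1 their r was between -0.18 and -0.04, while those 6 libraries had r of 0.21 to 0.37 among themselves. BP1, labelled B light, thus stood with the W light libraries.

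The long loci were 5000 to 12542 bp long, with a median of 5734 bp against 522 bp over all loci. In all, 60.8% were under 6 kb, 1225 were 8 kb or more and 110 were 10 kb or more. They added up to 126.8 Mb, which is 0.891% of the chromosomes and 1.48% of the covered DNA, and they took 2.25% of all reads. Their mean count per library ran from 7.33 to 39.9 (median 19.4). Read density over the 12 libraries together was 39.4 reads per kb in the median long locus, close to the 37.3 reads per kb of loci of 4 to 5 kb and above the 19.3 of all nuclear loci. At the length limit, the 1941 long loci less than 100 bp above it had a median mean count of 16.2, and the 2243 loci up to 100 bp below it had 15.8. At the count limit, 473 long loci had a mean of 35 to 40, and 252 loci left out had a mean of 40 to 45.

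Most long loci were covered in every library. A read in all 12 libraries was found at 15057 of them (71.8%), against 48.2% of the loci of 4 to 5 kb and 0.889% of all nuclear loci. Another 5163 lacked a read in 1 library, and for 3086 of these the library was WC1. The fewest libraries that covered a long locus was 7, and no long locus was without a read in all 3 libraries of a group. The share of long loci with a read averaged 97.3% per library, 3.08 percentage points above that of loci of 4 to 5 kb, and it was the higher of the pair in 12 of 12 libraries. A longer locus offers more bases for a read, so this difference is given as a description.

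The D subgenome was the richest in long loci. It held 7764 of them, 1.94 per Mb, against 1.34 per Mb in the B subgenome (7029 loci) and 1.24 per Mb in the A subgenome (6172 loci). The D chromosome was the densest of its trio in 7 of 7 chromosome groups, with 1.80 to 2.26 per Mb. B chromosomes had 0.778 to 1.91 per Mb and A chromosomes 1.09 to 1.45 per Mb. The lowest density of the genome was on 1B (0.778 per Mb), which also had the fewest loci of any length, 577.1 per Mb. Chromosome 4D had the highest, 2.26 per Mb, followed by 6D with 2.00 per Mb, and 4B with 1.91 per Mb came nearest to them among the B chromosomes. Loci of all lengths were spread far more evenly, with 836.3 per Mb in D, 774.8 in B and 823.3 in A. The excess of D over A grew with length, with a density ratio of 0.985 for loci under 0.5 kb, 1.38 for 4 to 5 kb, 1.5 for 5 to 6 kb and 1.94 for 8 kb or more. These are counts over 1 shared set of loci, with no replicates and no test.

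Along the chromosomes the long loci lay towards the middle. With each chromosome cut into 10 equal bins, the outermost bins held 4.29% and 3.51% of them, against 14.5% in the richest bin, from 40% to 50% of the chromosome length. All loci together were spread almost evenly, with 9.13% and 9.32% in the outermost bins. In the richest bin the density reached 2.93 per Mb on D, 1.90 on B and 1.76 on A, and in the last bin it was 0.647, 0.501 and 0.430 per Mb. The share of loci within the outer 20% at either end dropped steadily with length, at 41.9% for loci under 0.5 kb, 25.1% for 4 to 5 kb and 20.2% for 8 kb or more. Within 1 Mb of a chromosome end there were 19 long loci in all.

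**Figure D1:**
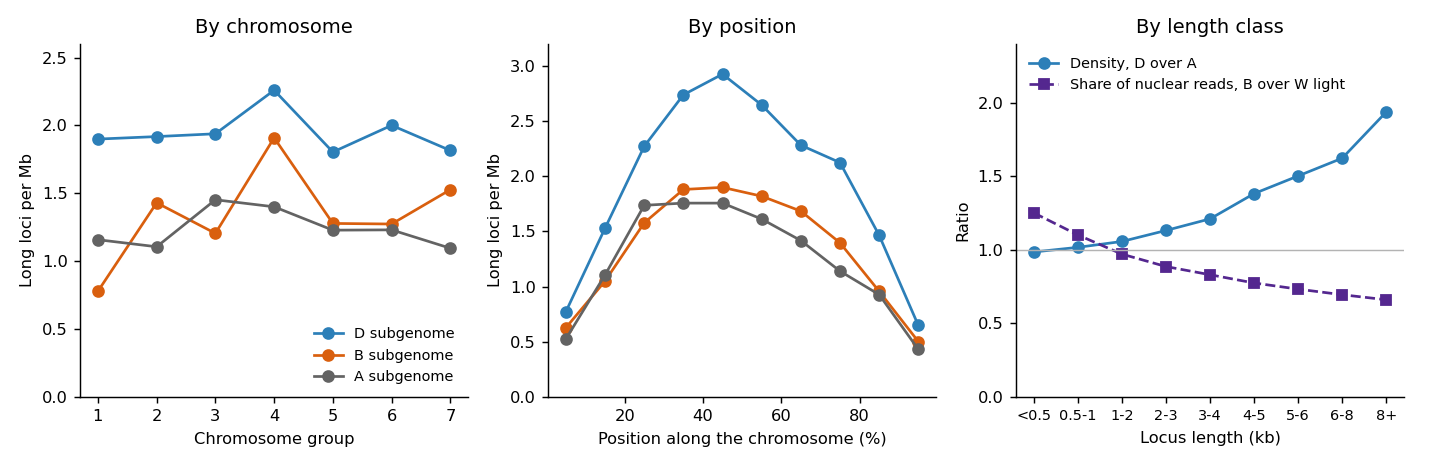
Long loci per Mb by chromosome group (left) and by bin of 10% of the chromosome length (middle) for the D, B and A subgenomes, and, by length class in kb (right), the density on D over that on A together with the mean share of nuclear reads under B over W light. The D line lies above the others in every chromosome group and bin, and the D over A ratio climbs to 1.94 while the B over W ratio declines to 0.660.

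Neighbouring long loci were usually far apart. The median gap was 345.4 kb, and 890 of 20944 gaps were under 10 kb (4.25%). Of 14234 windows of 1 Mb, 33.5% held no long locus. The widest gap ran for 21.07 Mb on chr7A:585548001-606621994. At the other extreme, 17 windows held 10 or more long loci, up to 19 in the window from 376 to 377 Mb on 4D and 18 in that from 361 to 362 Mb on 1D, which long loci filled to 12.4% and 11%. The 207 long loci of these 17 windows are taken up again below.

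Few long loci touched genes. An overlap of at least 1 bp with an annotated protein-coding gene was found for 440 long loci (2.1%) and 442 genes. Of the loci of 4 to 5 kb even fewer touched one (1.71%), so this is not particular to the long loci. Genes took up 1.19% of the bases of long loci, against 3.07% of the chromosomes. The share with a gene was 1.75% on D, 2.35% on B and 2.25% on A, and 2.84% in the outer 20% of the chromosomes against 1.87% inside. The genes touched were long themselves, with a median of 10247 bp against 2925 bp over all protein-coding genes, and 34 genes lay wholly inside a long locus. A longer gene is more readily touched by 1 bp or more, so this difference in gene length is a description. A long non-coding RNA was overlapped by 125 long loci (0.596%, loci of 4 to 5 kb 0.480%) and a pseudogene by 127 (0.606%, loci of 4 to 5 kb 0.603%). In 5 long loci fell 11 rRNA genes. The annotation used gives no exons, introns or UTRs, so an overlap is with the gene as a whole.

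The longest run inside 1 gene was 10879 bp of LOC123134453, the whole of the long locus chr1B:494533021-494543899 and 44.0% of that gene. It had 40, 10 and 27 reads in the BP libraries, 42, 12 and 28 in BC, 42, 44 and 34 in WP and 26, 44 and 66 in WC, and all groups overlapped. The next was 8697 bp of LOC123045178 on 2B, with 33, 33 and 13 reads in BP, 51, 14 and 23 in BC, 28, 27 and 32 in WP and 49, 12 and 50 in WC. The 10 genes with the most bases in a long locus shared 7366 to 10879 bp with it, and 2 of them, LOC123142610 and LOC123142594 on 6D, spanned 54975 and 144256 bp. None of these 10 had a product name in the sources used here.

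A product name was at hand for 18 of the 442 genes, from a study table that names 946 genes. That table lists genes matched to the loci the study found differentially methylated in these same libraries. Its names are thus not a sample of all wheat genes, and the list counts are descriptions only. Of the lists read against it (polyamine metabolism 1 named gene, DNA methylation 1, light signalling 2, photosynthesis 4, disease resistance 8, F-box 15, wall and storage proteins 2, and the methyl donor cycle with none), only photosynthesis had a gene in a long locus. This was LOC123068673, a chlorophyll a-b binding protein of the light-harvesting antenna, with 409 bp of its 991 bp at the end of chr1A:569859899-569868978. That locus of 9080 bp had 28, 47 and 40 reads in BP, 56, 55 and 54 in BC, 34, 3 and 25 in WP and 39, 21 and 12 in WC. All 3 BC libraries were above every other library, and BP overlapped with both W groups. Other named genes were LOC123084317, like the mitochondrial protease FTSH 4, which held a whole long locus of 6279 bp on 4A, and LOC123180933, like the small GTPase RABF1 of the endosomal pathway, which held one of 6463 bp on 1D.

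Long loci took a smaller share of the nuclear reads under B light. Their share averaged 1.89% in the 6 B light libraries (SD 0.44), against 2.66% in the 6 W light libraries (SD 0.30), lower by 0.768 percentage points (two-sided exact permutation test, p = 0.00649, adjusted p = 0.0346 over 16 library tests, Benjamini-Hochberg). By library it was 2.64%, 2.05% and 1.47% in BP, 1.96%, 1.46% and 1.79% in BC, 2.93%, 2.80% and 2.61% in WP and 2.1%, 2.68% and 2.86% in WC. BP1 was as high as the W light libraries, and WC1 fell between BP1 and BP2, so the lights overlapped. The BC libraries lay below all WP and WC libraries, with p = 0.1 in the exact test of BC against WC, the smallest that 3 against 3 allows. Leaving out any 1 library other than BP1 took the adjusted p to between 0.0519 and 0.0924, with differences of -0.68 to -0.88 points. With the reads at the kept loci as the denominator the difference was -1.04 points (adjusted p = 0.303). Across length classes the ratio was graded. The share under B over that under W light was 1.25 for loci under 0.5 kb, 0.970 for 1 to 2 kb, 0.774 for 4 to 5 kb and 0.660 for 8 kb or more. Over all nuclear loci, B light libraries had a read at 35.1% ± 4.0 of them and W light libraries at 23.1% ± 5.4 (p = 0.00433, exact permutation test, chosen after its values were seen). Every B light library also had a higher total than every W light library, and this breadth was not matched for depth. The part of this spread of reads in the lower share was not tested.

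Breadth over the long loci themselves was not distinguishable between the lights. B light libraries had a read at 98.6% ± 1.6 of long loci and W light libraries at 96.1% ± 6.7 (exact permutation test, p = 0.608, adjusted p = 0.723, n = 6 each), with WC1 at 82.5% and the other 11 libraries between 96.3% and 99.8%. More than 10 reads were found at 71.4% ± 15.9 under B light and 79.6% ± 10.7 under W light (exact permutation test, p = 0.268, adjusted p = 0.613, n = 6 each). The lowest of these shares were 47.1% in BP3, 56.3% in BC2 and 59.3% in WC1. These breadths are not at equal depth, as every B light library had the higher total. PUT moved none of the 8 library measures past an adjusted p of 0.05. The nearest was the B subgenome share of long-locus reads, 33.2% ± 0.6 with PUT and 33.7% ± 0.1 without (exact permutation test, p = 0.0152, adjusted p = 0.0606, n = 6 each). The effect of PUT under B minus that under W light was not past the threshold for any of the 8 measures (exact permutation test of light labels within treatment, adjusted p from 0.76 to 0.94).

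**Figure D2:**
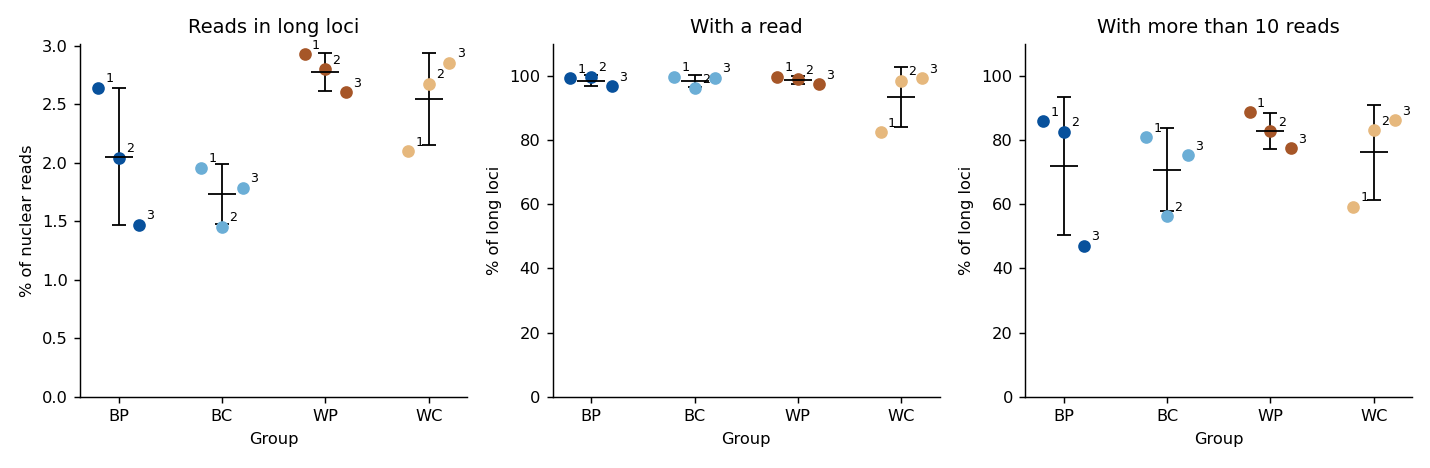
Share of nuclear reads in long loci, share of long loci with a read and share with more than 10 reads, in percent, by group. Points are libraries with their repetition number, and bars are the mean ± SD of 3 libraries. BC libraries lie between 1.46% and 1.96% of reads, BP1 at 2.64%, and WC1 stands low at 82.5% of loci with a read.

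Within the long-locus reads, the D subgenome share was lower and the A share higher under B light. B light libraries had a D share of 36.9% ± 0.6 and W light libraries one of 38.0% ± 0.3 (SD, n = 6 each), lower by 1.15 percentage points, with p = 0.00216, the smallest the exact permutation test of 6 against 6 can give (adjusted p = 0.0346). The 6 B light libraries ran from 35.9% to 37.6% and the 6 W light libraries from 37.7% to 38.3%, with no overlap, BP1 and WC1 being the closest pair. The A share was 29.8% ± 1.0 under B light and 28.5% ± 0.3 under W light (exact permutation test, p = 0.00433, adjusted p = 0.0346, n = 6 each), with BP3 the highest at 31.5%. The B subgenome share was 33.3% ± 0.7 under B light and 33.5% ± 0.2 under W light (exact permutation test, p = 0.81, n = 6 each). Leaving out any 1 W light library took the adjusted p for D to between 0.0519 and 0.0693 and that for A to between 0.0577 and 0.0924, and leaving out any 1 B light library left both at 0.0346 or below.

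A D share that was lower under B light was also found outside the long loci. Over all nuclear reads the D share was 30.3% ± 0.3 under B light and 31.1% ± 0.4 under W light (p = 0.00433), and over loci of 4 to 5 kb it was 34.5% ± 0.8 under B light and 35.9% ± 0.3 under W light (p = 0.00433, exact permutation tests, n = 6 each, chosen after the values were seen). The D share of long loci exceeded that of all nuclear reads by 6.56 percentage points under B light and 6.90 under W light, a difference of -0.35 points (exact permutation test, p = 0.0931, n = 6 each). Without BC2 and BP3 the D difference of long loci was -0.83 points (adjusted p = 0.0762), and with WC1 also left out it was -0.90 (adjusted p = 0.0635, exact permutation tests on 4 against 6 and 4 against 5 libraries). Among the 1225 loci of 8 kb or more alone, the D share was not lower under B light, with a difference of 0.95 points (adjusted p = 0.648, exact permutation test). Locus by locus, the median log2 fold change of B over W light was 0.03 on A, -0.03 on the B subgenome and -0.08 on D, and it was higher on the A than on the D chromosome in 7 of 7 chromosome groups. These medians are relative to the scaling of the libraries.

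**Figure D3:**
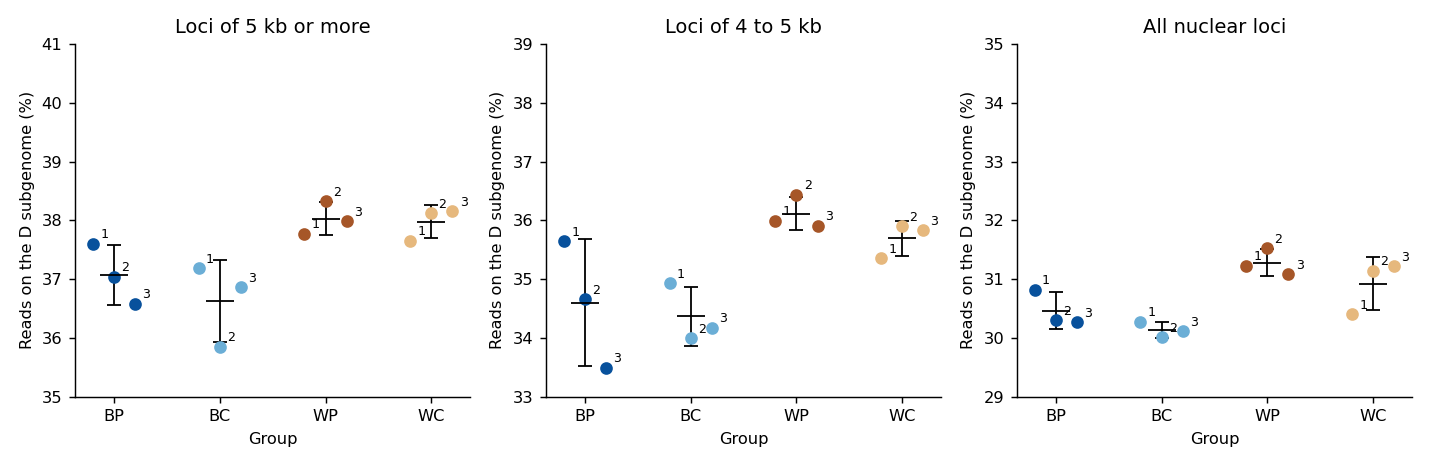
Share of reads on the D subgenome, in percent, over long loci (left), loci of 4 to 5 kb (middle) and all nuclear loci (right), by group, with the repetition number beside each library and bars of mean ± SD of 3 libraries. The axes span 6 percentage points and do not start at 0. BP and BC libraries lie below WP and WC libraries over long loci, and in the other panels B and W light libraries overlap.

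A locus was called where its p was below 0.01 and its log2 fold change beyond 1.5 in either direction in edgeR's quasi-likelihood test, fitted on all 539307 loci that passed a count filter, and 20930 of the 20965 long loci passed it. Each count is followed by its share of the tested long loci and by the share called among all tested loci. BC against WC gave 178 long loci higher (0.850%, all loci 2.36%) and 16 lower (0.076%, all loci 0.176%). BP against WC gave 318 higher (1.52%, all loci 3.14%) and 11 lower (0.053%, all loci 0.143%). WP against WC gave 53 higher (0.253%, all loci 1.25%) and 10 lower (0.048%, all loci 0.436%). In each of these comparisons with the W light control, the long loci were called less than the background in both directions.

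In the other comparisons, fitted on all 12 libraries, the shares were lower than the background too. BP against BC gave 9 higher and 9 lower (0.043% each, all loci 0.196% and 0.137%). WP against BC gave 38 higher (0.182%, all loci 0.22%) and 92 lower (0.440%, all loci 1.16%). WP against BP gave 21 higher (0.1%, all loci 0.144%) and 161 lower (0.769%, all loci 1.39%). Over the 6 libraries of each light, B against W gave 409 higher (1.95%, all loci 3.98%) and 32 lower (0.153%, all loci 0.29%), and P against C gave 31 higher (0.148%, all loci 1.01%) and 6 lower (0.029%, all loci 0.403%). The interaction of light and PUT, the PUT effect under B minus that under W light, gave 4 higher and 20 lower (0.019% and 0.096%, all loci 0.411% and 0.601%). The comparisons share libraries, so the counts are not independent of each other.

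Shorter loci in the same range of mean counts lay in between in every comparison and direction, with 2.75% called higher and 0.196% lower for B against W. Among all called loci of the 6 comparisons between groups, 62.9% to 85.7% had no read at all in the lower group, which could not occur at a long locus, since each had a read in every group. For light, the share called higher was 2.26% on A, 1.55% on the B subgenome and 2.08% on D. It was 2.17% for long loci of 5 to 6 kb, 1.72% for 6 to 8 kb and 1.06% for 8 kb or more.

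**Figure D4:**
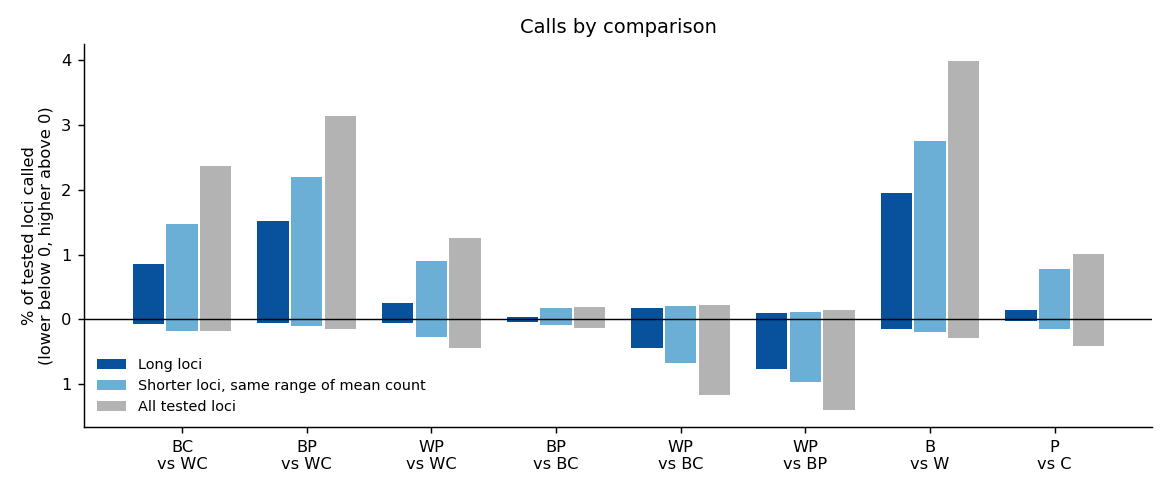
Percentage of tested loci called higher (above 0) and lower (below 0) in each comparison, for long loci, for shorter nuclear loci in the same range of mean count and for all tested loci. In every comparison the long loci have the smallest bars, such as 1.95% higher for B against W, where all loci have 3.98%.

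The libraries set apart weighed on these counts. BP3 was the highest library at 310 of the 409 long loci higher under B light and at 219 of the 318 higher in BP than in WC, and WC1 had no read at 181 and 171 of them. For B against W, 441 long loci were called in either direction with all libraries, 158 without BP3 (0.755%, all loci 2.08%) and 283 without BC2 (1.35%, all loci 2.83%). For BP against WC, 329 were called, 127 without BP3 and 534 without BP1. For BC against WC, 194 were called, 107 without BC2, 128 without BC3 and 357 without WC3. For WP against WC, 63 were called, 132 without WC2, 263 without WC3 and 41 without WP2. For WP against BC, 130 were called, 246 without WC1, 86 without WP2 and 52 without BC2. For WP against BP, 182 were called, 339 without WC1, 97 without WP3, 355 without BP1 and 43 without BP3. For BP against BC, 18 were called, 45 without WC1, 10 without WP1, 11 without WP2, 58 without BC1, 40 without BP1 and 42 without BP3. For P against C, 37 were called, 102 without WC2, 160 without WC3, 61 without BC1 and 56 without BP1. For the interaction, 24 were called, 43 without WC1, 67 without WC2, 158 without WC3, 56 without BP1 and 40 without BP3. The share called among all tested loci moved with the libraries too. For WP against BC it was 1.38%, 1.94% without WC1, 1.01% without WP2 and 0.696% without BC2. For BP against BC it was 0.333%, 0.534% without WC1, 0.282% without WP1 and 0.298% without WP2. It was 0.361% without BC1, 0.324% without BP1 and 0.332% without BP3. For P against C it was 1.41%, 1.79% without WC2, 2.35% without WC3, 1.17% without BC1 and 1.28% without BP1. For the interaction it was 1.01%, 1.05% without WC1, 1.21% without WC2, 1.74% without WC3, 0.891% without BP1 and 0.792% without BP3. In 203 of 204 refits of the 9 comparisons under other settings, the share of long loci called stayed below that of all loci, and the exception was WP against BC without WC1, BC2 and BP3 (1.07%, all loci 0.985%). These refits reuse the same libraries. The background also holds calls with no read in the lower group, which no long locus could give. The tally is thus a description and no independent support.

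The split between higher and lower calls moved as well. Without WC1, the counts for B against W were 399 higher and 86 lower (all loci, either direction, 4.25%). Scaled by library size alone, with no TMM factors, B against W gave 232 higher and 109 lower, BC against WC 117 and 57, BP against WC 142 and 64, WP against WC 40 and 20, BP against BC 8 and 16, WP against BC 62 and 89, WP against BP 57 and 91, and P against C 17 and 18 higher and lower. In either direction, this scaling called 3.42%, 2.15%, 2.39%, 1.70%, 0.352%, 1.36%, 1.24% and 1.38% of all loci, in that order. With DESeq2, BC against WC gave 367 and 98 (all loci, either direction, 4.65%). With RLE factors, WP against BC gave 27 and 169 (all loci, either direction, 1.75%). Library size alone gave a median log2 fold change for B against W of -0.02 over all tested loci and -0.22 over the long loci, where TMM scaling gave 0.17 and -0.04.

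No long locus passed an adjusted p of 0.05 (edgeR, Benjamini-Hochberg over all tested loci) for WP against WC, BP against BC, WP against BC, P against C or the interaction (all loci 0.000927%, 0.00185%, 0.0109%, 0.00315% and 0.000371%), where 380, 199, 621, 311 and 233 long loci had an unadjusted p below 0.05. With DESeq2 these 5 counts were 5, 0, 12, 2 and 0. There were 2 such long loci for BC against WC (0.010%, all loci 0.0139%), 7 for BP against WC (0.033%, all loci 0.059%) and 1 for WP against BP (0.005%, all loci 0.0076%). DESeq2 gave 80, 229 and 40, RLE factors 5, 36 and 7, and the likelihood ratio test 8, 31 and 0 for these 3 comparisons. For BC against WC, 0 were left without BC1 or BC2, 1 without WC1 or WC2, 4 without BP3 and 6 without WC3. For BP against WC, 0 were left without BP3, 3 without WC1, BC1, BC3 or BP2, 4 without WC2 or WP1, 23 without WC3 and 25 without BP1. The 1 locus for WP against BP was lost without WP1, WP2, WP3 or BP3, and there were 3 without BP1 and 6 without WC1. Shares of all loci past the adjusted p in these refits are not given here. Scaled counts of all 6 B light libraries lay above those of all 6 W light libraries at 102 long loci (0.487%, all loci 0.668%), and below them at 55 (0.263%, all loci 0.16%).

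For B against W light, 23 long loci passed the adjusted p of 0.05 (0.110%, all loci 0.186%), and all 23 were higher under B light, with log2 fold changes of 2.08 to 3.93. They lay 10 on D, 8 on A and 5 on the B subgenome, and none overlapped a protein-coding gene. In 5 of the 23, every B light library was above every W light library. BP3 was the highest library at 20 of the 23, and WC1 had no read at 16. The number passing was 456 with DESeq2, 184 with RLE factors, 111 with the likelihood ratio test and 5 with library size alone. It also moved with every library left out, to 81 without BP1, 63 without WC3, 45 without WC2, 35 without WC1, 15 without BC1, 13 without BC3, 12 without BP2, 10 without WP2 or WP3, 9 without WP1, 3 without BC2 and 0 without BP3. The shares of all loci past the adjusted p under these settings are not given here either. Without BC2 and BP3 all 23 stayed higher under B light, with log2 fold changes of 1.29 to 3.46, but 0 passed an adjusted p of 0.05 and 14 had p below 0.01 in edgeR's test on the 10 libraries left.

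The locus with the smallest p was chr4A:183370432-183375688, of 5257 bp, with 38.1 kb to the nearest protein-coding gene, LOC123081920. It had 22, 39 and 74 reads in BP, 17, 17 and 39 in BC, 3, 2 and 6 in WP and 0, 4 and 6 in WC. The lowest B light library was well above the highest W light library, and PUT libraries were not apart from C libraries within W light. The log2 fold change of B over W was 3.57 ± 0.68 (SE, edgeR quasi-likelihood test, adjusted p = 0.00111), and 3.28 without BC2 and BP3 (edgeR, adjusted p = 0.144). Leaving out BP3 alone gave 3.18 (edgeR, adjusted p = 0.0989), and with any other library left out the adjusted p stayed below 0.05.

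A gentler case was chr7B:685440569-685445705. It had 30, 63 and 55 reads in BP, 68, 43 and 71 in BC, 38, 24 and 6 in WP and 19, 5 and 12 in WC. BC and WC did not overlap, and WP1 was above BP1. Its log2 fold change was 2.08 ± 0.50 (SE, edgeR, adjusted p = 0.0303). It was 2.05 without BC2 and BP3 (edgeR, adjusted p = 0.115) and 2.26 with WC1 left out as well (adjusted p = 0.015). With 1 library left out it ran from 1.85 to 2.37, and in 9 of 12 such refits the adjusted p was over 0.05, at 0.13 without BP3. At chr3B:403016698-403021893, with 20, 59 and 54 reads in BP, 23, 22 and 28 in BC, 2, 11 and 14 in WP and 0, 0 and 11 in WC, the lights did not overlap either. Its log2 fold change of 2.83 (edgeR, adjusted p = 0.0191) was 2.66 without BP3 (adjusted p = 0.168), and the adjusted p was over 0.05 in 6 of 12 such refits. WC3 held all the WC reads. These 2 loci were chosen after their values were seen.

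The 32 long loci lower under B light were led by chr7D:209066991-209072167, of 5177 bp, 100.2 kb from LOC123164946. It had 29, 5 and 6 reads in BP, 2, 5 and 1 in BC, 37, 55 and 24 in WP and 21, 60 and 42 in WC. BP1 was among the W light values and the other 5 B light libraries were below all of them. The log2 fold change of B over W was -2.43 ± 0.64 (SE, edgeR, adjusted p = 0.0593). The same locus had the smallest p among the long loci that were lower in BC than in WC, with -3.39 ± 0.96 (edgeR, adjusted p = 0.227), and among those higher in WP than in BC, with 3.44 ± 0.96 (edgeR, adjusted p = 0.602). Without BC2 these values were -4.21 and 4.25.

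The densest clusters of long loci were where BP3 stood out most. In 10 of the 17 windows of 1 Mb with 10 or more long loci, RPM (reads over all loci of the window, short and long, scaled to the library total) were 2.20 to 3.61 times as high in BP3 as the mean of the 6 W light libraries. All 10 were on D chromosomes (1D, 2D, 4D, 5D and 6D). In the other 7 windows, on 1B, 2B, 2D, 6A, 6D and 7D, this ratio was 0.786 to 1.05. Across all 13796 windows with 300 or more loci the median was 0.987, the 5th and 95th percentiles were 0.792 and 1.22, and 19 windows were over 2 (0.138%). BC2 was 1.24 to 1.79 times the W light mean in the same 10 windows. WC2 was the highest W light library in 10 of 10, and WC1 the lowest of all 12 in 8 of 10. The ratio limit of 2 was set after the values were seen, and reads of BP3 were among those that made these loci long and the windows dense, so these are descriptions with no test.

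The window from 145 to 146 Mb on 5D, with 13 long loci among 562, shows the order of the libraries. It had 66.7, 120.2 and 309.7 RPM in BP, 92.1, 147.6 and 119.7 in BC, 73.6, 100.8 and 68.9 in WP and 54.1, 141.0 and 78.0 in WC. BP3 was far above any other library, BP1 was among the lowest, and WC2 was close to BC2. The next window on 5D, from 146 to 147 Mb, had 302.5 RPM in BP3, and the one after it had a BP3 ratio of 0.866. The edges were similar elsewhere. On 6D the windows at 113 and 114 Mb had ratios of 2.38 and 3.26, and those next to them, at 112 and 115 Mb, had 0.949 and 0.916. The exceptions among the neighbours were the window at 506 Mb on 2D with 8 long loci (2.54), that at 377 Mb on 4D (2.01), that at 429 Mb on 4D (1.79) and that at 144 Mb on 5D (1.49).

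**Figure D5:**
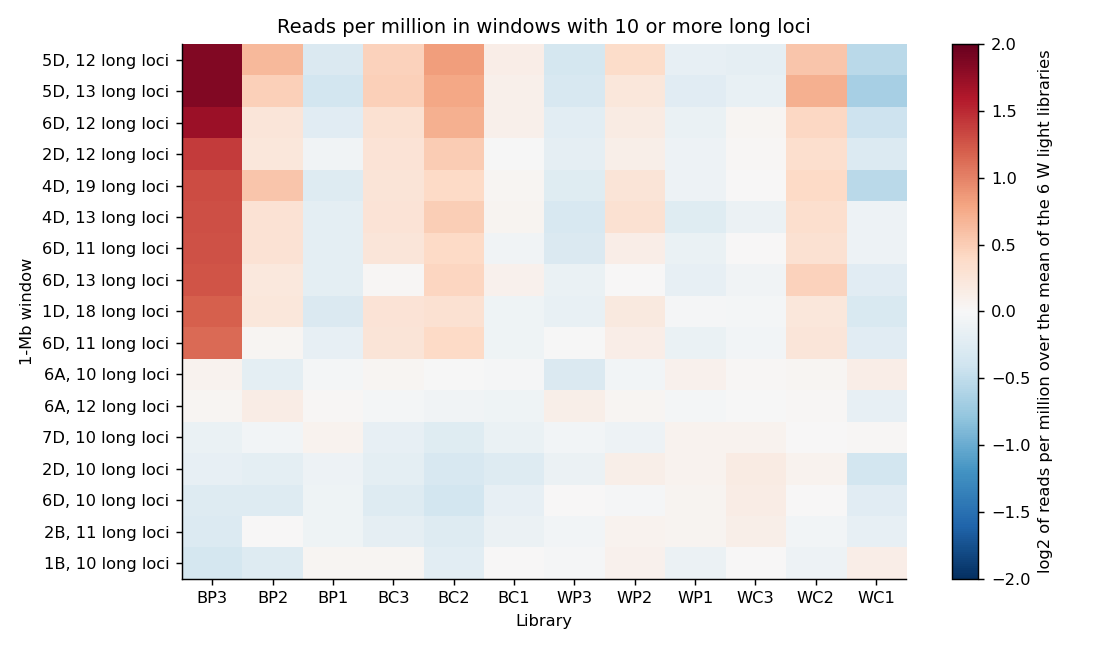
RPM in each of the 17 windows of 1 Mb with 10 or more long loci (rows, named by chromosome and number of long loci) in the 12 libraries (columns), as the log2 ratio to the mean of the 6 W light libraries. BP3 is high in the upper 10 rows, all on D chromosomes, with BC2, WC2, BC3 and BP2 raised to a lesser extent, and is near or below 0 in the other 7.

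The 134 long loci of these 10 windows carried 3.26% of the long-locus reads in BP3, 1.55% in BC2 and 0.388% to 1.04% in the other libraries. Their mean count was 16.1, 29.0 and 73.6 in BP, 19.7, 33.7 and 28.4 in BC, 15.3, 21.3 and 15.5 in WP and 10.7, 28.1 and 19.0 in WC. In the other long loci it was 24.8, 20.8 and 14.0 in BP, and BP3 was thus among the lowest there. For B against W, 46 of the 134 were called higher (34.3%) against 363 of 20796 elsewhere (1.75%, all loci 3.98%). Of the 23 loci past the adjusted p, 6 were in these windows. The windows were picked for their BP3 reads and BP3 is in this fit, so the excess is not a test. Without BP3, 7 of the 134 (5.22%) and 131 elsewhere (0.630%) were called higher (all loci, either direction, 2.08%). Without BC2 as well, 6 and 100 were (all loci, either direction, 1.34%). In the 134, the median log2 fold change of B over W was 1.31 with all libraries, 0.72 without BP3 and 0.59 without BC2 as well. Elsewhere it was -0.04, 0.04 and 0.10. Loci within a window are not independent. With all 17 windows left out, the share of nuclear reads in long loci was 1.86% ± 0.45 under B light and 2.64% ± 0.30 under W light, and the D share was 36.0% ± 1.1 under B light and 37.7% ± 0.2 under W light (exact permutation tests, n = 6 each, p = 0.00649 and 0.00216, both adjusted p = 0.0346).

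A single locus in these windows led 2 comparisons. At chr1D:361408330-361414628, of 6299 bp and 455.9 kb from the nearest protein-coding gene, there were 6, 10 and 6 reads in WP, against 24, 47 and 158 in BP and 32, 36 and 51 in BC, with 19, 22 and 32 in WC. The WP libraries were the lowest 3 of the 12, below WC without overlap, and BP3 was far above the next library, BC3. The log2 fold change of WP over BP was -3.67 ± 0.74 (SE, edgeR, adjusted p = 0.0151), but -2.29 without BP3 (edgeR, adjusted p = 1), and its adjusted p was also over 0.05 without any 1 WP library (0.224 to 0.453). That of WP over BC was -2.78 ± 0.73 (adjusted p = 0.45).

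Against the W light control, the smallest p was at chr4D:164305299-164310919, of 5621 bp and 104.6 kb from LOC123097028. It had 9, 32 and 52 reads in BP, 24, 39 and 6 in BC, 14, 6 and 14 in WP and 1, 0 and 0 in WC. WC was nearly empty and every other library had 6 reads or more. The log2 fold change over WC was 6.45 ± 1.27 in BP (SE, edgeR, adjusted p = 0.00442) and 6.13 ± 1.27 in BC (adjusted p = 0.0174). With 1 read in WC the scaled ratio was 114.1 for BP (95% exact interval for counting error 20.0 to 4556) and 99.0 for BC (17.2 to 3967), so its size is hardly fixed. Without BP3 the value for BP was 5.65 (edgeR, adjusted p = 0.192), and without BC2 that for BC was 5.50 (adjusted p = 0.33). The adjusted p was also over 0.05 without WC2 or WC3, for BP (0.0821 and 0.0513) and for BC (0.216 and 0.139), and for BC without BC1 (0.0594). Without WC1, which held the read, WC was empty and no value is given. In WP the mean scaled count was 10.7, between WC and the B light groups.

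For PUT under W light, the leading locus was chr2D:242690615-242696085, of 5471 bp and 640.0 kb from the nearest gene, with 49, 12 and 16 reads in WP and 0, 1 and 0 in WC. BP had 12, 22 and 7 reads and BC 22, 5 and 17, so WC alone was low. The scaled ratio of WP to WC was 85.3 (95% exact interval for counting error 14.9 to 3411), and the log2 fold change of 5.89 ± 1.40 had an adjusted p of 0.476 (SE, edgeR) and was 5.01 without WP1. In the other direction, chr1D:201694816-201700426 had 0, 4 and 0 reads in WP and 29, 18 and 3 in WC, where WP2 was above WC3 both before and after scaling (log2 fold change -3.32 ± 1.11, edgeR, adjusted p = 0.548). It fell short of the call without WC1 (-2.74), WP1 or WP3 (-2.78 each), and WP2 held all the WP reads. It had 15, 20 and 52 reads in BP and 10, 33 and 7 in BC.

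For PUT under B light, chr2B:295004025-295010832, of 6808 bp, which overlaps the long non-coding RNA LOC123044776, had 29, 121 and 60 reads in BP and 13, 7 and 20 in BC. BP and BC did not overlap, WP had 28, 36 and 44 reads and WC 17, 48 and 9, and WC1 and WC3 lay in the range of BC (log2 fold change 2.19 ± 0.73, edgeR, adjusted p = 1). It fell short of the call without BC1, BC2 or BP2. At chr2D:222028976-222034828, of 5853 bp, the BP libraries had 2, 3 and 3 reads and BC 30, 0 and 25. WP had 36, 14 and 4 reads and WC 36, 41 and 46, which made it also the leading locus lower in BP than in WC (log2 fold change over WC -3.57 ± 1.01, adjusted p = 0.136, edgeR). BC2, with no read, was below the BP libraries. At chr6D:333626889-333632173 the WP libraries had 41, 21 and 50 reads against 0, 4 and 1 in BP, with 10, 1 and 23 in BC and 0, 22 and 7 in WC (log2 fold change of WP over BP 4.22 ± 1.18, edgeR, adjusted p = 0.444), and the value was 3.63 without BP1, while only 1 BP read was left without BP2.

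Of the 440 long loci with a protein-coding gene, 16 were called in 1 or more of the 6 comparisons (3.64%, all loci 6.68%), and for B against W 8 were higher and 0 lower (1.82%, all loci 3.98% and 0.29%). None of the 10 with the smallest p passed the adjusted threshold, their adjusted p running from 0.118 to 0.704. The first was chr6B:490710392-490715721, with 1458 bp in LOC123139285. It had 11, 57 and 35 reads in BP, 3, 7 and 30 in BC, 7, 6 and 22 in WP and 0, 8 and 0 in WC. BP was above WC without overlap, with a log2 fold change of 3.95 ± 1.08 (adjusted p = 0.118, edgeR). It was 3.36 without WC1, and without WC2, which held all the WC reads, WC was empty.

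Named products were known for 5 of these 10, one of them uncharacterized. LOC123099179, like the mitochondrial elongation factor Tu, which brings tRNA to the ribosome of that organelle, had 3959 bp in chr1B:662583593-662589967. That locus had 40, 41 and 30 reads in BP, 60, 73 and 73 in BC, 18, 25 and 24 in WP and 33, 1 and 31 in WC. BC was above every other library, and the change over WC of 2.19 ± 0.69 on the log2 scale was 1.61 and fell short of the call without WC2, which had a single read (edgeR, adjusted p = 0.286 with all libraries). LOC123156359, like a cysteine-rich receptor-like protein kinase, one of the cell surface kinases, lay wholly inside chr7B:728885249-728892614. That locus had 16, 28 and 19 reads in WP, against 51, 79 and 88 in BC, with 55, 40 and 20 in BP and 40, 15 and 20 in WC, and WP was below BC without overlap (log2 fold change -2.15 ± 0.68, edgeR, adjusted p = 0.704), a call lost without WP1 or BC3.

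LOC123116230, like the histone-lysine methyltransferase SETD1A, lay wholly inside chr5B:402740701-402745812. The locus had 40, 36 and 33 reads in BP, 39, 9 and 24 in BC, 17, 21 and 19 in WP and 2, 13 and 6 in WC. BP and WC did not overlap, and WP was between them (log2 fold change of BP over WC 2.64 ± 0.88, adjusted p = 0.23, edgeR). It was 3.41 without WC2 and fell short of the call without WC1 or WC3. LOC123061058, like a tonoplast dicarboxylate transporter of the vacuole membrane, shared 42 bp with chr3A:225145702-225151402. This locus had 44, 27 and 12 reads in BP, 41, 19 and 22 in BC, 72, 104 and 46 in WP and 9, 26 and 19 in WC. In raw counts WP was above all other libraries, but by scaled count BC1 was above WP3. The log2 fold change of WP over WC was 2.17 ± 0.72 (adjusted p = 0.548, edgeR), short of the call without WC1 or WP2.

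The steadiest long locus was chr4A:403623021-403633264, of 10244 bp and 925.3 kb from the nearest protein-coding gene, with 35, 34 and 28 reads in BP, 31, 26 and 40 in BC, 38, 36 and 34 in WP and 51, 47 and 49 in WC. Its scaled counts had a coefficient of variation of 14.0% over the 12 libraries. It was followed by chr3B:655657513-655664269, with 17.3% and counts of 16 to 29, and chr2D:467864449-467870307, with 20.4% and counts of 13 to 38. The typical locus was far less steady. The median coefficient of variation within a group was 56.2% in BP, 48.4% in BC, 42.4% in WP and 57.9% in WC.

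The 5 longest loci were of 12243 to 12542 bp on 1A, 1D, 6D, 4D and 3B, all clear of genes, and none was called for light. The longest, chr1A:134846872-134859413, had 61, 30 and 20 reads in BP, 27, 21 and 22 in BC, 73, 34 and 47 in WP and 5, 38 and 78 in WC. In the second, chr1D:244443533-244455961, there were 72, 40 and 10 reads in BP, 5, 10 and 21 in BC, 57, 45 and 72 in WP and 20, 31 and 40 in WC. BP3 had 10 to 20 reads and BC2 7 to 21 at these 5 loci, against 34 to 73 in WP1 and WP2.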

How the data were processed

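The deposited table holds, for 12 MeDIP-seq libraries, whole-number read counts at 1 shared set of loci. Per the study's methods, the authors used Trim Galore and Cutadapt for trimming and BWA for alignment, with the Chinese Spring assembly IWGSC CS RefSeq v2.1 as the genome. They merged what was covered into loci with bedtools, and the deposited counts are reads per locus and library, without normalization. Tool versions are not given in the sources used here. Removal of duplicate reads is not given in the sources used here, and no input library was used here. Every per-library column was mapped to its sample by its library name.

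A locus was kept if 2 or more libraries of some group had over 10 reads there. Kept loci were tested with edgeR 4.0.16 (R 4.3.3, glmQLFit and glmQLFTest), with the 12 libraries in 1 fit, a term for each group and TMM factors (0.820 in BP3 to 1.49 in WC1), and p-values were adjusted over all kept loci (Benjamini-Hochberg). Dispersions followed a trend with abundance, with none set for single loci, and the common dispersion was 0.951. For the quasi-likelihood step edgeR estimated infinite prior degrees of freedom, so no locus was tested against its own spread. The test gives no standard error, so each SE printed with a log2 fold change is its absolute value divided by the square root of the F statistic. Scaled counts were divided by library size times TMM factor. Exact permutation tests on library measures were two-sided and covered 8 measures in 2 contrasts. Where 1 read or more was in the lower group, a ratio was given with its exact interval, for counting error only, since reads are not independent molecules.

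Named loci were the 5 longest, those that led each comparison, by p, in either direction, the 3 with the lowest coefficient of variation among those with a read in all 12 libraries, the 10 genes with the most bases in 1 long locus, the 10 called gene-overlapping long loci with the smallest p, and genes of the lists. Genes came from the RefSeq annotation of the same assembly, and overlaps were counted from 1 bp. Members and lists were chosen with earlier results of these data known. Alternatives were the likelihood ratio test, DESeq2 1.42.0, other scalings, filters and limits, the 6 libraries of a comparison alone, a replicate block, and libraries left out. Computed with Python, numpy and pandas. Sequences are not shown, as no genome sequence was used here.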

Additional observations from a re-analysis of the deposited data

Results flagged for a closer look

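Dixon's test of the highest or lowest of 6 libraries was run on 32 groups of values, and chance flags about 1 in 20 of them. It singled out 6, on 2 libraries. The share of long loci with a read was 82.5% in WC1, apart both from the other W light libraries and from the other C libraries. BP3 was apart from the other PUT libraries with 47.1% of long loci over 10 reads, with an A subgenome share of 31.5% and with a B subgenome share of 32.0%, and this last value was also apart from those of the other B light libraries.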

How the results depend on the processing

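The replicate numbers did not pair the libraries, since deviations of same-numbered libraries had r between -0.12 and 0.21, over 0.1 in 1 of 18 pairs, and 4 of 12 libraries correlated best with their own number. With the replicate block, 9 long loci were called for BP against BC (all loci 0.164%) and 102 for WP against BP (all loci 0.788%), the other 7 counts stayed within 1.5 times, and the block gave adjusted p = 0.0988 for the light differences of -0.77 points in the share of nuclear reads, 1.30 in the A share and -1.15 in the D share.

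With DESeq2 the calls numbered 465 for BC against WC, 746 for BP against WC, 180 for WP against WC, 116 for BP against BC, 371 for WP against BC, 574 for WP against BP, 772 for B against W, 69 for P against C and 119 for the interaction. Among all loci DESeq2 called 4.65%, 6.20%, 3.39%, 1.00%, 3.08%, 3.84%, 7.52%, 2.58% and 2.00%, in the same order. RLE factors gave 523 for BP against WC, 196 for WP against BC, 377 for WP against BP and 696 for B against W (all loci 4.16%, 1.75%, 2.42% and 5.58%). Library size alone gave 206 for BP against WC (all loci 2.39%). A filter of a count above 5 gave 115 for BC against WC, 41 for WP against WC, 104 for WP against BP and 277 for B against W (all loci 1.60%, 1.01%, 0.784% and 4.36%). One above 20 gave 28 for BP against BC (all loci 0.264%). The fit with no count filter was not run. The 6 libraries of a comparison alone gave 113 for BP against WC and 348 for WP against BC (all loci 2.25% and 2.18%). At an adjusted p below 0.05 there were 2, 7, 0, 0, 0, 1, 23, 0 and 0 in the same order as for DESeq2.

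Without BC2 and BP3, chosen after seeing the data, there were 139 calls for BP against WC, 97 for WP against WC, 28 for BP against BC, 84 for WP against BC, 52 for WP against BP, 124 for B against W and 40 for the interaction. Among all loci 1.24%, 1.14%, 0.235%, 0.535%, 0.417%, 1.34% and 0.523% were called, in that order. Without WC1 as well, there were 187 for BP against WC, 113 for WP against WC, 107 for BP against BC, 224 for WP against BC, 215 for B against W, 89 for P against C and 116 for the interaction. Among all loci 1.21%, 1.08%, 0.551%, 0.985%, 1.55%, 0.959% and 0.813% were then called, in that order. Leaving out 1 library at a time gave 107 to 357 for BC against WC, 127 to 534 for BP against WC, 41 to 263 for WP against WC, 10 to 58 for BP against BC, 52 to 246 for WP against BC, 43 to 355 for WP against BP, 158 to 645 for B against W, 27 to 160 for P against C and 18 to 158 for the interaction.

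The share of long loci called for WP against WC was 0.456% from 4 kb and 0.163% from 8 kb, for WP against BC 0.408% from 8 kb, for B against W 1.06% from 8 kb, for P against C 0.286% from 4 kb and 0.082% from 8 kb, and for the interaction 0.210% from 4 kb.

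For light, the share of nuclear reads differed by -0.39 points from 6 kb, -0.081 from 8 kb, -0.25 with a mean count limit of 20, -1.04 over reads at kept loci, -0.55 without BC2 and BP3 and -0.67 without WC1 as well, all short of the threshold, and by -0.92 to -0.68 with 1 library left out. The A share differed by 1.07 from 6 kb, 0.095 from 8 kb, 0.73 without BC2 and BP3, 0.81 without WC1 as well and 0.97 to 1.5 with 1 library left out. The D share differed by -0.65 from 6 kb, 0.95 from 8 kb (reversed), -0.83 without BC2 and BP3, -0.90 without WC1 as well and -1.30 to -0.95 with 1 library left out. The B subgenome share reversed to 0.11 with the 17 dense windows left out. For PUT it was past the threshold from 4 kb (-0.57) and with no mean count limit (-0.65), and was -0.60 to -0.27 with 1 library left out. The distal share for light passed with no mean count limit (1.73) and with the outer 30% as distal (0.49), and the gene share for light reversed to 0.10 where at least 50% of the gene had to lie inside. The cause of these changes was not tested.

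No named locus changed direction. Of the 432 refits of single named loci, 396 kept their side of the threshold and 36 fell short of it. Depth limits single loci, since the median long locus had 19.4 reads per library.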

Other observations

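Over the groups, a read in every library was found at 95.8% of long loci in BP, 95.6% in BC, 96.3% in WP and 81.0% in WC, and more than 10 reads in every library at 33.4% in BP, 36.1% in BC, 61.2% in WP and 45% in WC. Each library was also thinned to the total of WC1 over nuclear loci with a mean count below 40. The share of long loci with more than 10 reads was then 79.2%, 68.1% and 35.8% in BP and 68.6%, 43.8% and 61.0% in BC. It was 85.0%, 80.5% and 74.5% in WP and 59.3%, 77.5% and 81.5% in WC. Apart from BP1 and WC1, every B light library was below every W light library. Breadth over all loci was not matched by this.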
